A study of Homo sapiens with 8 samples.

Results

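The interleukins and colony-stimulating factors described here are 10 genes, IL6, IL11, LIF, IL24, IL1A, IL1B, CSF2, CSF3, TSLP and IL32, out of 25162 named genes in the deposited table. They were selected on the FPKM values of these same libraries, with earlier results known, and all 28 of their RefSeq transcripts in the table were taken, matched by identifier. RNA was sequenced from HMLE cells, a human mammary epithelial line made to grow without limit, with 2 libraries in each of 4 groups. The groups were cells with an shRNA against SOX4 and TGF-β for 16 h, cells with the SOX4 shRNA left untreated, cells with a scrambled shRNA and TGF-β for 16 h, and cells with the scrambled shRNA left untreated. All 4 groups had been transduced with lentivirus and selected with puromycin at 0.5 µg/mL. The knockdown rests on 1 shRNA sequence, and whether a group's libraries came from separate cultures is not stated in the labels, so p-values measure only the spread between these libraries, which may be technical.

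Interleukins and colony-stimulating factors are small secreted proteins through which cells signal to each other, and epithelial cells make many of them in response to damage, microbes and growth factors. IL-6, IL-11 and LIF signal through receptors that share the gp130 chain and activate JAK kinases and STAT3. IL-1α and IL-1β bind the same receptor and activate NF-κB, GM-CSF (CSF2) and G-CSF (CSF3) drive the production and activity of myeloid cells, and TSLP is an epithelial cytokine that acts on dendritic cells and other immune cells.

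Levels are given in FPKM, fragments (here single reads) per kilobase of transcript and per M reads of the library. The deposited table lacked the decimal mark in 34.1% of its cells, whose digits could then stand for values that differ by factors of 10. In genes with 1 transcript the readings that correspond to whole reads were sought. A value 10 times higher is then whole as well, so whole reads alone do not fix the mark. The readings were therefore weighed with the spread between libraries, which favours readings that make libraries alike. Genes were kept at a probability of at least 0.95. The tests of differences between libraries rest on this weighing. The scale of the libraries, inferred from FPKM values taken to stand for 1 read, was 12.6 to 16.8 M reads. At this scale the 4778 genes that could be restored and tested held 2.76 to 3.69 M reads. The basal keratins KRT5 and KRT14 were at 2886 to 3945 and 1446 to 2875 FPKM, while the leukocyte markers CD3E and TYROBP were listed at 0 in all 8 libraries and PTPRC reached 0.0167 FPKM. Other leukocyte markers were higher, CD68 and CSF1R at or above 3.36 and 1.41 FPKM and LYZ at or above 0.109 FPKM. SOX4, the target of the knockdown, read 0.923 and 1.02 FPKM in untreated SOX4-shRNA libraries against 8.74 and 8.04 FPKM in untreated scrambled-shRNA libraries, the least certain of these readings having a probability of 0.998. In TGF-β-treated libraries SOX4 read 2.37 and 1.88 FPKM with the SOX4 shRNA, whereas the scrambled-shRNA values could not be told between 1.87 and 18.7 FPKM in library 1 and between 1.76 and 17.6 FPKM in library 2.

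IL6, which encodes interleukin-6, was the member with the largest fitted rise on SOX4 knockdown. It had 3.57 and 3.16 FPKM in TGF-β-treated SOX4-shRNA libraries, 2.49 and 3.22 FPKM in untreated SOX4-shRNA libraries, 1.23 and 2.30 FPKM in TGF-β-treated scrambled-shRNA libraries, and 0.182 and 0.807 FPKM in untreated scrambled-shRNA libraries. All 4 SOX4-shRNA libraries lay above all 4 scrambled-shRNA libraries, and the untreated scrambled-shRNA libraries were the lowest. Few reads stood behind these values, 47 to 49 in TGF-β-treated SOX4-shRNA libraries, 34 to 49 in untreated ones, 18 to 31 in TGF-β-treated scrambled-shRNA libraries and 3 to 10 in untreated ones. Mean IL6 was 2.85 ± 0.512 FPKM in untreated SOX4-shRNA cells and 0.494 ± 0.442 FPKM in untreated scrambled-shRNA cells (SD, n = 2 each). In untreated cells IL6 rose on knockdown by 1.39 ± 0.25 (SE) in log2(FPKM + 1) (limma adjusted p = 0.0201), and the ratio of mean FPKM was 5.77. The added 1 FPKM makes the fitted change smaller than the ratio at such low levels. This call was lost without library 1 of the untreated scrambled-shRNA cells (adjusted p = 0.125), without library 2 of the untreated SOX4-shRNA cells (adjusted p = 0.0877) and without the filter on low values (adjusted p = 0.0872), over a range of 0.00257 to 0.125 across all settings. Both cells of untreated scrambled-shRNA libraries were intact, so the order of the untreated groups holds whatever the lost marks. The order against TGF-β-treated scrambled-shRNA libraries rests on the readings given, whose joint probability was 0.995. Read 10 times higher, those libraries would have 12.3 and 23.0 FPKM. With TGF-β the knockdown difference was 0.68 ± 0.25 (adjusted p = 0.197), and TGF-β gave 0.18 ± 0.25 in SOX4-shRNA cells (adjusted p = 0.707) and 0.89 ± 0.25 in scrambled-shRNA cells (adjusted p = 0.0661, and 0.016 with a replicate block whose numbers are crossed between treatments). The fibroblast markers COL1A2, COL3A1 and THY1 fell on knockdown in the same untreated cells, and in bulk RNA fewer cells of a type and less RNA per cell cannot be told apart.

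IL6 has 5 exons and spans bases 22765503 to 22771621 of chromosome 7 (plus strand, GRCh37). Exons of IL6-AS1 and STEAP1B on the opposite strand share 428 and 46 of its exonic bases, and reads of these genes cannot be told apart, because the sources used here do not say whether counting used the strand. The 250 bases before its start are printed because IL6 was the member with the largest fitted rise on knockdown (chr7:22726950-22727199, plus strand, RefSeq on GRCh38.p14). Capitals mark, from 5′ to 3′, matches to a C/EBP motif (TTNNGNAA), a SOX motif (AACAANG), a κB motif (GGGA, 2 free bases, T, 1 free base, CC) and a SMAD motif (CAGACA), searched on both strands.
IL6: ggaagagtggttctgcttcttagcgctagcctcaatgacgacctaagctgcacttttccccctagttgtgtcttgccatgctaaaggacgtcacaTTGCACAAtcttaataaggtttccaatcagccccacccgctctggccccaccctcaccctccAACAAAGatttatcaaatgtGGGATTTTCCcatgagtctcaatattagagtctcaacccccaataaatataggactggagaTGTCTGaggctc
These 4 matches do not overlap each other and start at -155, -93, -73 and -12 from the RefSeq start. Of 35116 RefSeq promoters of the same length, 33.2% hold a C/EBP match, 10.4% a SOX match, 4.22% a κB match and 13.6% a SMAD match. A match of letters describes the sequence and does not show that a factor binds there.

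IL11, a gp130 cytokine with known roles in stromal and bone cells, moved the opposite way to IL6 on knockdown in untreated cells and rose with TGF-β in SOX4-shRNA cells. A rise with TGF-β in scrambled-shRNA cells rests on the reading of 2 lost decimal marks. It had 4.96 and 7.55 FPKM in TGF-β-treated SOX4-shRNA libraries, 0.826 and 0.806 FPKM in untreated SOX4-shRNA libraries, 6.12 and 6.59 FPKM in TGF-β-treated scrambled-shRNA libraries, and 2.82 and 2.26 FPKM in untreated scrambled-shRNA libraries. The untreated SOX4-shRNA libraries were the lowest, the untreated scrambled-shRNA libraries came next, and the TGF-β-treated groups overlapped each other above both. These are sums over its 2 transcripts at the lowest reading of every mark. All 8 sums were whole reads within 0.0014 reads, whereas at most 6 were whole in 20 draws with random last digits. Values 10 times higher are whole as well in both untreated scrambled-shRNA libraries and in both TGF-β-treated SOX4-shRNA libraries, where the second transcript was near 0. At 100 times higher the tolerance, which grows with the reading, lets every value count as whole. Whole reads alone therefore do not fix the values with lost marks. Weighed as for the 1-transcript genes, which favours readings that make libraries alike, the 8 lowest readings had a joint probability of 0.999. The cells of both untreated SOX4-shRNA libraries were intact, so that these are the lowest libraries at any reading. The reads numbered 151 to 249 in TGF-β-treated SOX4-shRNA libraries, 23 to 27 in untreated ones, 197 to 198 in TGF-β-treated scrambled-shRNA libraries and 62 to 103 in untreated ones. Mean IL11 was 6.26 ± 1.82 FPKM with TGF-β and 0.816 ± 0.0144 FPKM untreated in SOX4-shRNA cells, and 6.36 ± 0.330 FPKM with TGF-β and 2.54 ± 0.399 FPKM untreated in scrambled-shRNA cells (SD, n = 2 each).

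Because it has 2 transcripts, IL11 was outside the fit of 1-transcript genes and was added to it afterwards, with TSLP, as a choice made after seeing the data. TGF-β raised it by 1.98 ± 0.18 in SOX4-shRNA cells (limma adjusted p = 0.00105), where 7.87% of the 4780 genes were called. At the lowest readings the change in scrambled-shRNA cells was 1.06 ± 0.18 (adjusted p = 0.0162), where 6.53% were called. With 28.2 and 22.6 FPKM in untreated scrambled-shRNA libraries, the readings 10 times higher, this becomes -1.84 ± 0.18 (adjusted p = 0.00322). On knockdown it fell in untreated cells, with a log2 change of -0.96 ± 0.18 (adjusted p = 0.0241; 4.06% called), and gave -0.04 ± 0.18 with TGF-β (adjusted p = 0.947; 3.87% called). Mean FPKM with TGF-β was 7.67 times the untreated mean in SOX4-shRNA cells and 2.50 times in scrambled-shRNA cells, but the interaction of 0.91 ± 0.25 did not pass over all genes (adjusted p = 0.994; 0.0418% called). With the higher untreated scrambled-shRNA readings the knockdown change in untreated cells is -3.85 ± 0.18 (adjusted p = 8.4e-05) and the interaction 3.81 ± 0.26 (0.000831). The rise in SOX4-shRNA cells was called without each library in turn (adjusted p = 0.00212 to 0.00593). The rise in scrambled-shRNA cells was lost without any 1 of the 4 scrambled-shRNA libraries (adjusted p = 0.0899 to 0.138). The fall on knockdown was lost without any 1 of the untreated libraries or of the TGF-β-treated scrambled-shRNA libraries (adjusted p = 0.0598 to 0.177) and with a replicate block (adjusted p = 0.0569).

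IL11, with 5 exons, spans bases 55875750 to 55881831 of chromosome 19 (minus strand, GRCh37) and overlaps no other gene in GENCODE 44. Its upstream sequence (chr19:55370464-55370713, minus strand, GRCh38.p14) is shown because IL11 was called in 3 comparisons at the lowest readings, and the capitals mark a match to an AP-1 motif (TGANTCA).
IL11: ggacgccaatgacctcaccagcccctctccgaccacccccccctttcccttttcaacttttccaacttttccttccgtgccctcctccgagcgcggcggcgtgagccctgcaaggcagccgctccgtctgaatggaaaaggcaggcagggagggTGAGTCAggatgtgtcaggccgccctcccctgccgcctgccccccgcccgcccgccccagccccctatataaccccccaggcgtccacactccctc
The AP-1 match, whose motif is its own reverse complement, starts at -96, and 6.57% of the 35116 promoters hold one.

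**Figure D1:**
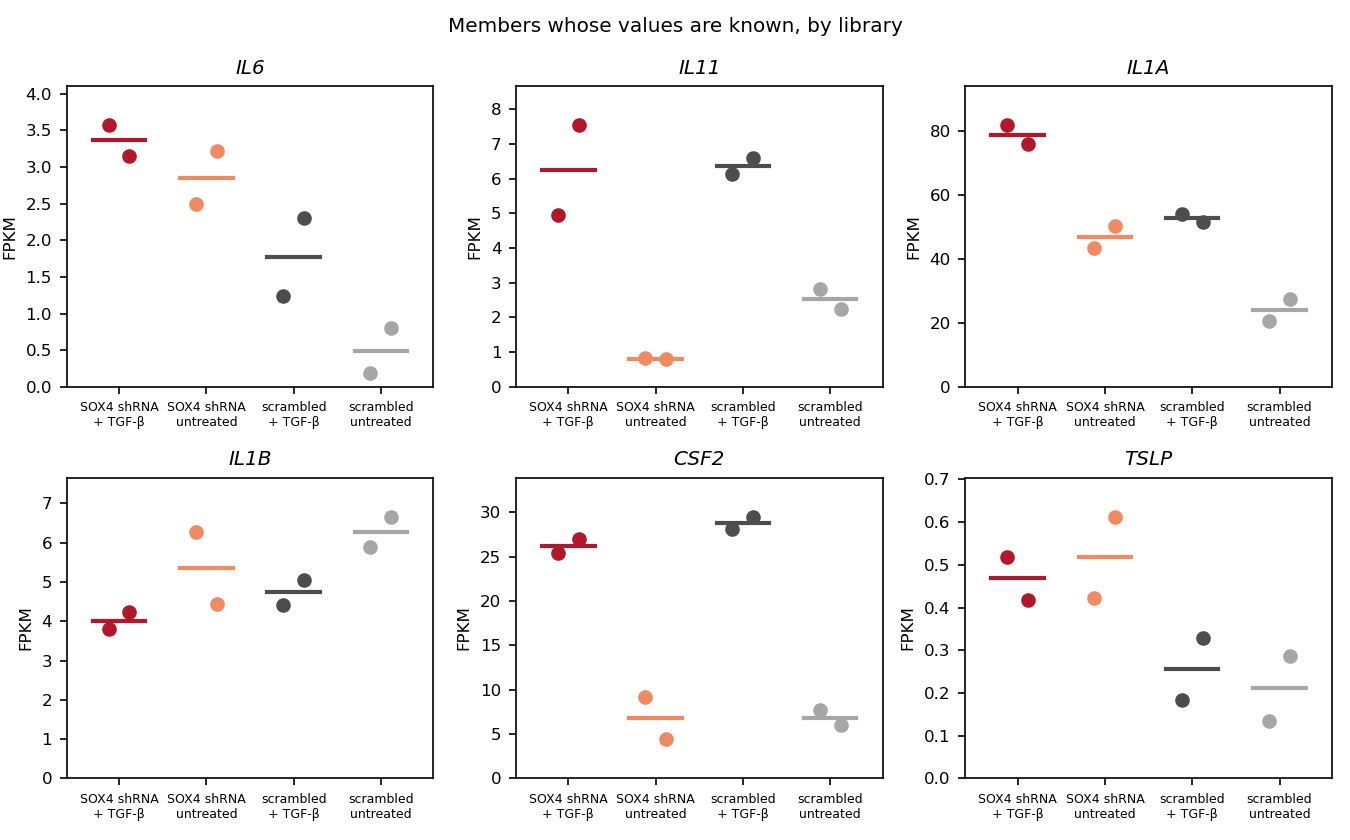
FPKM of 6 members, headed as known, as points for single libraries and lines for group means, on linear axes from 0 that differ between panels. Only TSLP was intact throughout, and the others are drawn at the most probable readings of their lost marks. IL6 and TSLP lie higher in all 4 SOX4-shRNA libraries, CSF2 lies between 25.4 and 29.5 FPKM in all 4 TGF-β-treated libraries, and IL11, at its lowest readings, is lowest in untreated SOX4-shRNA libraries.

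LIF, the leukemia inhibitory factor that keeps mouse embryonic stem cells undifferentiated, could not be restored, since only 4 of 8 sums over its 2 transcripts came out whole. At the lowest reading of every mark its sums lay between 1.99 and 2.84 FPKM in all 8 libraries, and the groups overlapped in all 4 pairwise comparisons. The same digits also allow sums of up to 269 FPKM, so no direction is given for LIF. The gene lies on chromosome 22 at 30636442 to 30642748 (minus strand, GRCh37, 3 exons), and LIF-AS1 and LIF-AS2 on the other strand share 86 and 83 of its exonic bases.

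IL24 encodes a cytokine of the IL-10 family that signals through receptors containing IL20RB. Summed over its 4 transcripts, it had 0.857 and at least 1.19 FPKM in TGF-β-treated SOX4-shRNA libraries, 0.304 and 0.227 FPKM in untreated SOX4-shRNA libraries, 1.61 and 1.33 FPKM in TGF-β-treated scrambled-shRNA libraries, and 0.873 and 0.312 FPKM in untreated scrambled-shRNA libraries. The TGF-β-treated libraries lay above the untreated ones within each kind of cell, and the untreated SOX4-shRNA libraries lay just below the untreated scrambled-shRNA ones. A single cell, in library 2 of the TGF-β-treated SOX4-shRNA cells, had lost its mark, and its higher readings of 10.5 or 104 FPKM do not change that order against untreated libraries. With 4 transcripts IL24 was outside the fit of 1-transcript genes, and no transcript of it reached 1 FPKM in 2 libraries. Unlike TSLP, which was also below that filter, it had a lost mark and was not added, so no test is given. The number of reads behind these low values of IL24 is not known. It lies on chromosome 1 at 207070788 to 207077484 (plus strand, GRCh37, 7 exons), and FCMR on the opposite strand shares 823 of its exonic bases.

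IL1A is the gene of interleukin-1α, an alarm cytokine that keratinocytes and other epithelial cells hold ready in the cell. At the readings used, it was the most abundant per length of the 6 members with intact or restored values. It had 81.9 and 76.1 FPKM in TGF-β-treated SOX4-shRNA libraries, 43.6 and 50.5 FPKM in untreated SOX4-shRNA libraries, 54.2 and 51.6 FPKM in TGF-β-treated scrambled-shRNA libraries, and 20.5 and 27.6 FPKM in untreated scrambled-shRNA libraries. The combination of knockdown and TGF-β gave the highest libraries and neither gave the lowest, while untreated SOX4-shRNA libraries lay just below TGF-β-treated scrambled-shRNA libraries. IL1A rose with TGF-β, by 0.74 ± 0.15 in SOX4-shRNA cells (limma adjusted p = 0.0261) and 1.12 ± 0.15 in scrambled-shRNA cells (0.00764). Mean IL1A was 79.0 ± 4.14 FPKM with TGF-β and 47.0 ± 4.88 FPKM untreated in SOX4-shRNA cells, and 52.9 ± 1.86 FPKM with TGF-β and 24.0 ± 5.01 FPKM untreated in scrambled-shRNA cells (SD, n = 2 each). Knockdown raised it by 0.95 ± 0.15 in untreated cells (adjusted p = 0.0139) and gave 0.57 ± 0.15 with TGF-β, which did not pass (adjusted p = 0.0931) except with a crossed replicate block (0.00503), a pairing that the labels do not give.

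IL1A had 937 to 3145 reads per library, and its calls depended on single libraries. The rise with TGF-β in SOX4-shRNA cells was lost under a replicate block (adjusted p = 0.0539), without the filter on low values (0.0735), with all kept genes (0.0551), and without library 1 of the untreated SOX4-shRNA cells (0.0829), library 1 or 2 of the treated ones (0.0783 and 0.0775) or either library of the TGF-β-treated scrambled-shRNA cells (0.0696 each). The rise in scrambled-shRNA cells was lost without library 1 of the untreated cells (adjusted p = 0.072) or library 1 or 2 of the treated ones (0.111 and 0.0941). The rise on knockdown was lost without the filter (adjusted p = 0.0502), without library 1 of the untreated scrambled-shRNA cells (0.0965) and without library 2 of the untreated SOX4-shRNA cells (0.0659). In all these settings the sign was unchanged.

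IL1A, with 7 exons, spans bases 113531502 to 113542070 of chromosome 2 (minus strand, GRCh37) and overlaps no other gene. Its upstream sequence (chr2:112784401-112784650, minus strand, GRCh38.p14, the more downstream of 2 RefSeq starts) is shown because IL1A passed the test in 3 comparisons. Capitals mark, in order, a C/EBP match at -125 and AP-1 matches at -105 and -55.
IL1A: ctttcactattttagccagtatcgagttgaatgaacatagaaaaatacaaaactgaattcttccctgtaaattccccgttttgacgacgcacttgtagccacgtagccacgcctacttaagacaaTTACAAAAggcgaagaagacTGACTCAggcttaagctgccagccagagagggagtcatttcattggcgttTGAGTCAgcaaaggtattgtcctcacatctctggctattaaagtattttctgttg
IL1A and IL11 were the only members with an AP-1 match among the 8 whose upstream sequence was in the RefSeq table.

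IL1B, the gene of interleukin-1β, which is made as an inactive precursor, lies 45257 bp from IL1A with no protein-coding gene between them (chromosome 2 at 113587328 to 113594393, minus strand, GRCh37, 7 exons). Its libraries had 3.81 and 4.22 FPKM in TGF-β-treated SOX4-shRNA cells, 6.28 and 4.43 FPKM in untreated SOX4-shRNA cells, 4.41 and 5.06 FPKM in scrambled-shRNA cells with TGF-β, and 5.89 and 6.66 FPKM in untreated scrambled-shRNA cells. Each TGF-β-treated pair lay below its untreated pair, narrowly so in SOX4-shRNA cells, and of the treated libraries those with the SOX4 shRNA were the lower. None of these differences passed the test. TGF-β gave -0.33 ± 0.16 in SOX4-shRNA cells (limma adjusted p = 0.261) and -0.34 ± 0.16 in scrambled-shRNA cells (adjusted p = 0.235), and knockdown gave -0.19 ± 0.16 with TGF-β (adjusted p = 0.644) and -0.21 ± 0.16 untreated (adjusted p = 0.538). The marks of IL1B were lost in all 8 libraries, and the values are the lowest readings, whose joint probability rounds to 1. Between 69 and 128 reads per library stood behind these values.

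CSF2, which encodes GM-CSF, showed the largest TGF-β change of the 4 members in the fit. It had 25.4 and 26.9 FPKM in TGF-β-treated SOX4-shRNA libraries, 9.14 and 4.42 FPKM in untreated SOX4-shRNA libraries, 28.0 and 29.5 FPKM in TGF-β-treated scrambled-shRNA libraries, and 7.67 and 5.98 FPKM in untreated scrambled-shRNA libraries. All 4 treated libraries lay above all 4 untreated ones, those with the SOX4 shRNA just below the scrambled ones, and the untreated groups overlapped. The rise of CSF2 with TGF-β was 1.87 ± 0.26 in SOX4-shRNA cells (limma adjusted p = 0.00538) and 1.94 ± 0.26 in scrambled-shRNA cells (0.00753). Knockdown gave -0.13 ± 0.26 with TGF-β (adjusted p = 0.863) and -0.07 ± 0.26 in untreated cells (adjusted p = 0.909). The call in scrambled-shRNA cells was lost without any 1 of the 4 scrambled-shRNA libraries, with fitted changes of 1.78 to 2.09. The call in SOX4-shRNA cells held under every alternative, with fitted changes of 1.42 to 2.32. All of these alternatives kept the CSF2 readings given here.

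The marks of CSF2 were lost in all 8 libraries, and the readings above had a joint probability of 0.988 given whole reads of 207 to 238 in TGF-β-treated SOX4-shRNA libraries, 40 to 74 in untreated ones, 236 to 243 in TGF-β-treated scrambled-shRNA libraries and 44 to 75 in untreated ones. Read 10 times higher, the untreated libraries would have 44.2 to 91.4 FPKM. They would then lie above the treated libraries as read here, which would turn the rise into a fall. No fit was made at those readings. Mean CSF2 was 26.2 ± 1.07 FPKM with TGF-β and 6.78 ± 3.33 FPKM untreated in SOX4-shRNA cells, and 28.8 ± 1.01 FPKM with TGF-β and 6.82 ± 1.19 FPKM untreated in scrambled-shRNA cells (SD, n = 2 each). The gene lies on chromosome 5 at 131409482 to 131411863 (plus strand, GRCh37, 4 exons, no overlapping gene). Its upstream sequence (chr5:132073539-132073788, plus strand, GRCh38.p14) is shown because CSF2 was called with TGF-β in both kinds of cell, and the capitals mark a κB match at -85.
CSF2: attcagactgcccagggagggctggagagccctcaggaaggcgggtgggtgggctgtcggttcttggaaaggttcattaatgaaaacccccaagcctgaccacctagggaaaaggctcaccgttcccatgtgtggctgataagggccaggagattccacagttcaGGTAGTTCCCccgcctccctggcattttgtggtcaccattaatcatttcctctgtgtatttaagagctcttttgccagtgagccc
No other motif of the 5 searched had a match in this window, and κB matches were also found upstream of IL6, IL32 and TSLP.

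**Figure D2:**
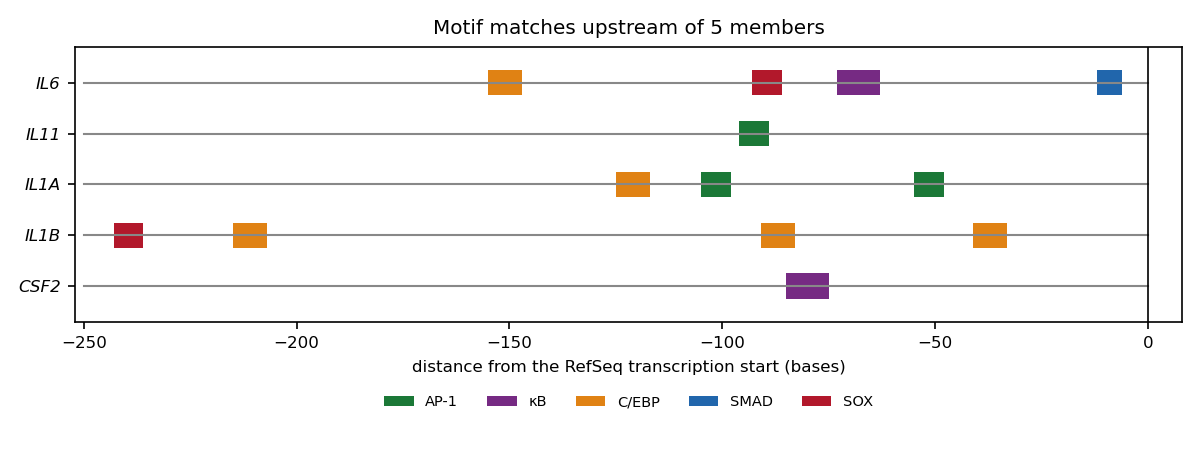
Matches to 5 motifs (coloured bars, drawn to scale) in the 250 bases before the RefSeq start of 5 members, with the distance from the start in bases on the x axis. IL6 holds 4 kinds of match, IL1A holds AP-1 matches at -105 and -55, IL11 one at -96, IL1B C/EBP and SOX matches and CSF2 a κB match at -85.

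CSF3, which encodes G-CSF, was lower in SOX4-shRNA cells under every possible reading of the marks. Summed over its 5 transcripts, it had 0.450 and 1.10 FPKM in TGF-β-treated SOX4-shRNA libraries and 0.573 and 0.557 FPKM in untreated SOX4-shRNA libraries, all from intact cells. Scrambled-shRNA libraries had at least 5.02 and 5.83 FPKM with TGF-β and at least 4.19 and 3.61 FPKM untreated, where 5 cells had lost their marks. Mean CSF3 was thus at least 7.01-fold lower in SOX4-shRNA cells than in scrambled-shRNA cells with TGF-β and at least 6.90-fold lower untreated. No test is given, because the scrambled-shRNA values are known only as lower limits. For the same reason no TGF-β change is given there. In SOX4-shRNA cells the TGF-β-treated libraries lay on either side of the untreated ones. The number of reads behind these low SOX4-shRNA values of CSF3, and so behind the folds, is not known. CSF3 lies on chromosome 17 at 38171614 to 38174066 (plus strand, GRCh37, 5 exons, no overlapping gene).

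TSLP was low in every library but wholly intact in the table. It had 0.518 and 0.418 FPKM in TGF-β-treated SOX4-shRNA libraries, 0.423 and 0.613 FPKM in untreated SOX4-shRNA libraries, 0.183 and 0.330 FPKM in TGF-β-treated scrambled-shRNA libraries, and 0.135 and 0.287 FPKM in untreated scrambled-shRNA libraries. All 4 SOX4-shRNA libraries lay above all 4 scrambled-shRNA libraries, on 13 to 21 reads against 5 to 10. Added to the fit below its filter, TSLP gave 0.23 ± 0.15 on knockdown with TGF-β (limma adjusted p = 0.530) and 0.33 ± 0.15 untreated (adjusted p = 0.282), neither of which passed. TGF-β gave -0.05 ± 0.15 in SOX4-shRNA cells (adjusted p = 0.887) and 0.05 ± 0.15 in scrambled-shRNA cells (adjusted p = 0.862). It lies on chromosome 5 at 110405760 to 110413724 (plus strand, GRCh37, 4 exons), where a lncRNA on the opposite strand shares 230 of its exonic bases.

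IL32, a cytokine gene of primates with many splice forms, had 8 transcripts and 13 cells with lost marks. At the lowest readings the sums were 2.64 and 9.04 FPKM in TGF-β-treated SOX4-shRNA libraries, 3.70 and 1.02 FPKM in untreated SOX4-shRNA libraries, 1.89 and 3.77 FPKM in TGF-β-treated scrambled-shRNA libraries, and 6.23 and 5.57 FPKM in untreated scrambled-shRNA libraries. At these readings the untreated scrambled-shRNA libraries lay above both the untreated SOX4-shRNA and the TGF-β-treated scrambled-shRNA ones, but other readings of the same digits let the groups overlap in all 4 comparisons. No direction is therefore given for IL32, which lies on chromosome 16 at 3115298 to 3132193 (plus strand, GRCh37, 7 exons) and shares 129 exonic bases with RNU1-125P on the same strand.

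**Figure D3:**
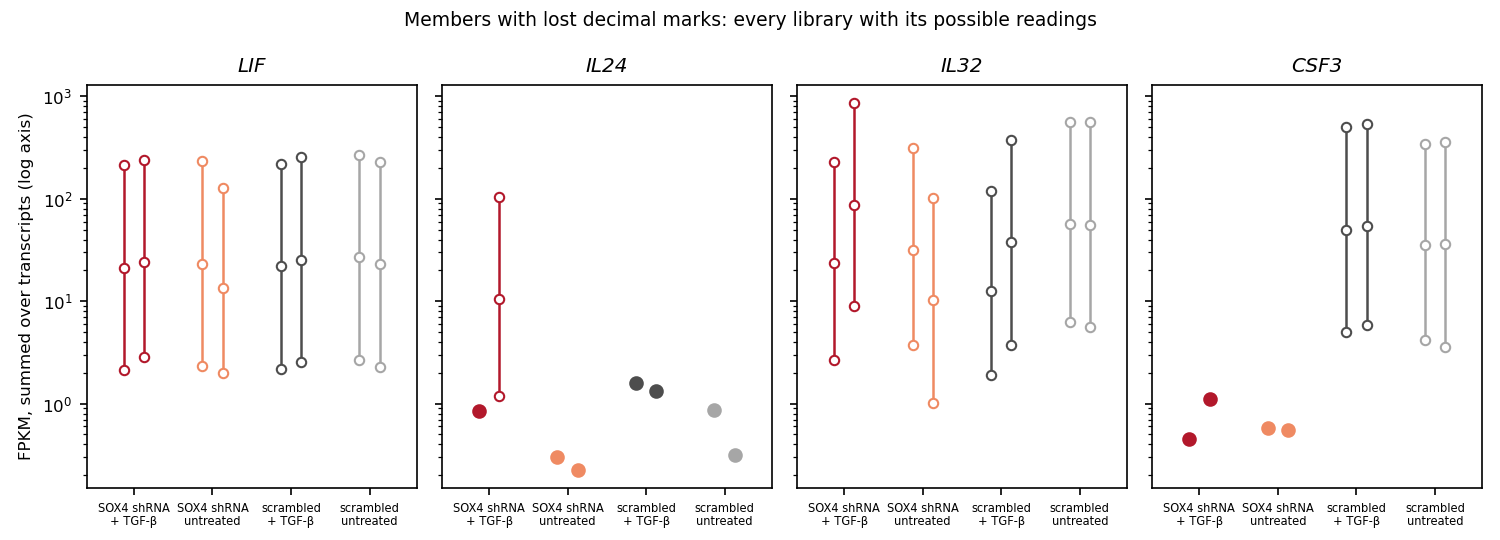
FPKM summed over transcripts (log axis) of 4 members in each library. Filled points are values from intact cells, and open points joined by a line are the same digits read at the lowest value, 10 times and 100 times higher. CSF3 lies at or below 1.10 FPKM in the 4 SOX4-shRNA libraries and at or above 3.61 FPKM in the 4 scrambled-shRNA libraries at any reading, while LIF and IL32 could lie at any of their readings.

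Of the 10 members, 8 reached 1 FPKM in 2 libraries for at least 1 transcript, and 4 (IL6, IL1A, IL1B and CSF2) could enter the fit of 4778 genes. With TGF-β, 2 of the 4 rose in SOX4-shRNA cells (IL1A and CSF2), where limma called 7.85% of all genes, 5.55% as higher and 2.3% as lower. The same 2 rose in scrambled-shRNA cells, where 6.51% were called, 4.33% higher and 2.18% lower. On knockdown none of the 4 was called in TGF-β-treated cells by limma, where 3.87% of genes were called, 1.17% higher and 2.7% lower, nor by limma-voom. An unadjusted limma p under 0.05 was reached there by 2 of the 4 and by 801 of the 4778 genes. In untreated cells 2 of the 4 rose on knockdown (IL6 and IL1A), where 4.04% of all genes were called, 1.13% higher and 2.91% lower. For the interaction none was called by limma or voom, and 0.0419% of genes were called, 0.0209% in each direction. None of the 4 had an unadjusted p under 0.05 there, against 134 of the 4778 genes. The median fitted change of the 4 was 0.46 with TGF-β in SOX4-shRNA cells, 1.01 with TGF-β in scrambled-shRNA cells, 0.22 on knockdown with TGF-β and 0.44 on knockdown untreated, beside medians of all genes between -0.05 and 0.02. The members were selected on these values, so the counts are descriptions. The comparisons share their groups pairwise and are not independent of each other.

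**Figure D4:**
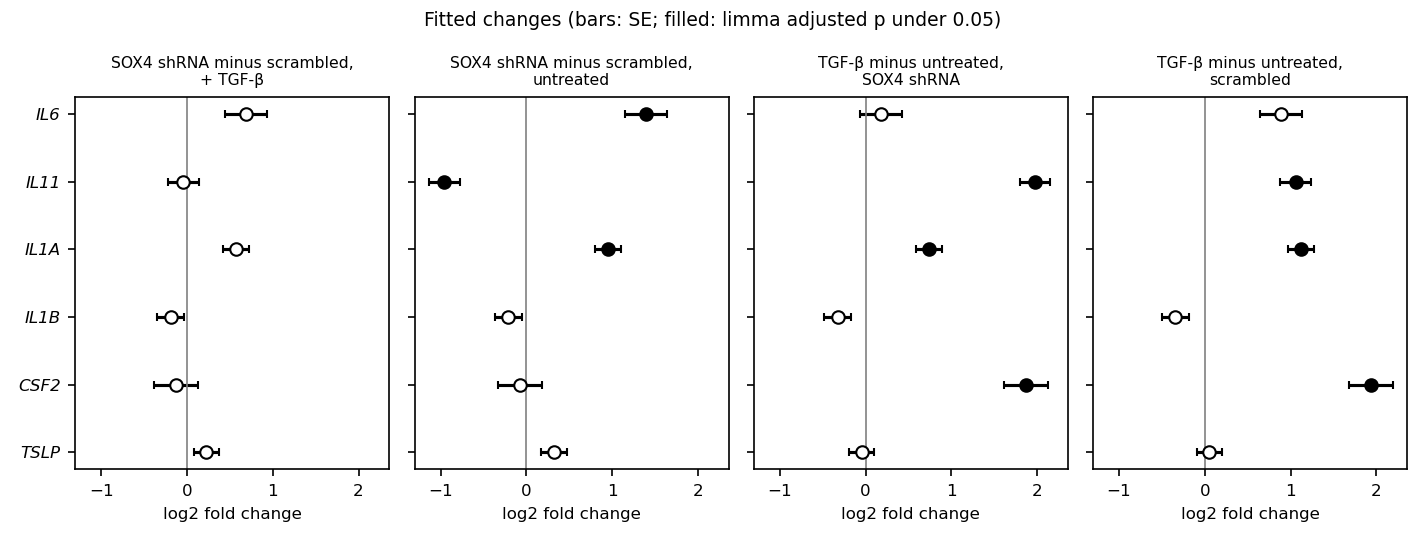
Fitted log2 changes (x axis) of 6 members in the 4 pairwise comparisons, with bars for the SE and filled points where the limma adjusted p was under 0.05. IL6 at 1.39 and IL1A at 0.95 are right of 0 on knockdown in untreated cells, where IL11 at -0.96 is left of it, and CSF2, IL11 and IL1A are right of 0 with TGF-β in both kinds of cell, IL11 being drawn at its lowest readings.

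The interaction asks whether TGF-β acted differently in the presence of the SOX4 shRNA. It was -0.71 ± 0.35 for IL6, -0.38 ± 0.22 for IL1A, 0.02 ± 0.23 for IL1B and -0.06 ± 0.36 for CSF2 in log2(FPKM + 1), all with limma adjusted p of 0.994 or more. A difference of the TGF-β response between the 2 kinds of cell was thus not detectable for any of these 4 genes at this number of libraries.

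Receptors for the members were looked at by level, whatever their values. The lowest readings put a floor under those with lost marks. In every library this floor was 6.20 FPKM for IL6R and 2.23 FPKM for IL6ST, which encodes gp130, 0.754 FPKM for IL11RA and 0.611 FPKM for LIFR. The IL-1 receptor genes IL1R1 and IL1RAP were at or above 2.53 and 7.82 FPKM, the decoy receptor IL1R2 at or above 0.129 FPKM and the receptor antagonist IL1RN at or above 2.91 FPKM. IL20RB, a chain of the IL-24 receptors, was restored at 61.5 to 73.3 FPKM, its partner IL22RA1 at 1.49 to 5.54 FPKM, and its other partner IL20RA did not exceed 0.162 FPKM.

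Receptor genes of the colony-stimulating factors differed in level. CSF2RB, the shared β chain of the GM-CSF receptor, did not exceed 0.0139 FPKM and CSF3R, the G-CSF receptor, did not exceed 0.0513 FPKM in any library, whereas CSF1R, the receptor for the factor CSF1, was at or above 1.41 FPKM in all 8. IL7R, a chain of the TSLP receptor, was at or above 3.18 FPKM. CSF2RA and CRLF2, the specific chains for GM-CSF and TSLP, were listed at 0 throughout, but both lie in a region shared by the X and Y chromosomes. All 25 transcripts of 8 genes of that region were listed at 0 in all 8 libraries, among them SLC25A6, a mitochondrial carrier that every cell uses, and CD99, so these zeros do not measure expression.

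Among signalling genes of the gp130 pathway, 8 of 16 listed were in the fit. PIM1, a kinase gene induced by STAT signalling, had 31.3 and 35.0 FPKM in TGF-β-treated SOX4-shRNA libraries, 12.9 and 11.5 FPKM in untreated ones, 21.8 and 22.4 FPKM in TGF-β-treated scrambled-shRNA libraries, and 12.1 and 10.2 FPKM in untreated ones. Its treated libraries were the highest, those with the SOX4 shRNA above the scrambled ones, and the untreated groups overlapped. PIM1 rose with TGF-β by 1.37 ± 0.13 in SOX4-shRNA cells (limma adjusted p = 0.00112) and 0.93 ± 0.13 in scrambled-shRNA cells (0.00764), and on knockdown with TGF-β by 0.56 ± 0.13 (adjusted p = 0.0485). SOCS3, a feedback inhibitor of gp130 signalling, rose with TGF-β in SOX4-shRNA cells by 0.92 ± 0.21 (adjusted p = 0.0392). No other gene of the list was called in a pairwise comparison, and none was in untreated cells on knockdown by limma or voom. None of the list had an unadjusted p under 0.05 there, against 920 of all 4778 genes. The list's median was 0.29 with TGF-β in SOX4-shRNA cells and 0.24 in scrambled-shRNA cells.

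On the IL-1 side 3 of 18 listed genes were in the fit. IRAK2, a kinase of the IL-1 receptor complex, rose with TGF-β by 0.94 ± 0.13 in SOX4-shRNA cells (limma adjusted p = 0.0056) and 0.74 ± 0.13 in scrambled-shRNA cells (0.0186). Its libraries had 10.7 and 11.2 FPKM in TGF-β-treated SOX4-shRNA cells, 5.79 and 4.70 FPKM in untreated ones, 12.1 and 10.4 FPKM in scrambled-shRNA cells with TGF-β and 6.16 and 6.52 FPKM in untreated ones, without overlap between treated and untreated. Of 12 NF-κB factors and feedback genes 3 were in the fit, and NFKBIA, the inhibitor that NF-κB itself induces, rose on knockdown with TGF-β by 0.58 ± 0.13 (adjusted p = 0.0424). NFKBIA had 93.5 and 98.1 FPKM in TGF-β-treated SOX4-shRNA libraries against 60.5 and 67.1 FPKM in TGF-β-treated scrambled-shRNA libraries.

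Other ligands of these families were mostly low. Of 37 listed, 19 stayed under 0.1 FPKM in all 8 libraries at the lowest readings, 10 reached 1 FPKM, and 2 were in the fit. IL23A, the p19 chain of interleukin-23, had 8.18 and 7.30 FPKM in TGF-β-treated SOX4-shRNA libraries, 3.34 and 2.23 FPKM in untreated ones, 5.21 and 3.99 FPKM in TGF-β-treated scrambled-shRNA libraries and 1.99 and 2.26 FPKM in untreated ones. Each treated pair lay above its untreated pair. IL23A rose with TGF-β by 1.22 ± 0.18 in SOX4-shRNA cells (limma adjusted p = 0.00612) and 0.83 ± 0.18 in scrambled-shRNA cells (0.0301), and voom called only the rise in SOX4-shRNA cells. IL12A, whose product pairs with a chain shared with interleukin-23, was not called.

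Of 12 genes that control the decay of cytokine mRNAs, such as ZFP36, 5 were in the fit and none was called in any comparison by limma or voom. For TGF-β in each kind of cell 1 of them had an unadjusted p under 0.05. Over all 4778 genes 1148 did so in SOX4-shRNA cells and 1157 in scrambled-shRNA cells. In a list of IL-10 family receptor and ligand genes 3 of 9 were in the fit and none was called by either tool. An unadjusted p under 0.05 was reached by 1 of them in each of 3 comparisons, TGF-β in scrambled-shRNA cells and knockdown untreated and with TGF-β. Over all genes 1157, 920 and 801 reached it in these 3. The single fitted gene of the colony-stimulating factor and TSLP receptor list, STAT5B, was not called either (none at an unadjusted p under 0.05, none by voom).

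Markers of other cells were read beside these changes. Among 7 fibroblast markers 3 were in the fit, COL1A2, COL3A1 and THY1, and all 3 fell on knockdown in untreated cells (-1.62, -1.31 and -0.72 in log2), where IL6 and IL1A rose and IL11 fell. With TGF-β COL1A2 and COL3A1 were also called lower on knockdown (-1.53 and -0.69), and COL1A2 rose with TGF-β by 0.69 in SOX4-shRNA cells and 0.60 in scrambled-shRNA cells. The summed level of the 5 fibroblast markers with intact or restored values was 60.7 to 73.2 FPKM in TGF-β-treated SOX4-shRNA libraries and 40.9 to 53.5 FPKM in untreated ones. It was 100.3 to 108.1 FPKM in TGF-β-treated scrambled-shRNA libraries and 81.1 to 89.8 FPKM in untreated scrambled-shRNA libraries. Of these 5, LUM and PDGFRA did not exceed 0.105 and 0.103 FPKM. The other 2 markers had lost marks and are given at their lowest readings. DCN was at 0.231 and 0.177 FPKM in TGF-β-treated SOX4-shRNA libraries, 0.362 and 0.156 FPKM in untreated SOX4-shRNA libraries, 0.975 and 0.936 FPKM in TGF-β-treated scrambled-shRNA libraries, and 1.42 and 1.10 FPKM in untreated scrambled-shRNA libraries. FAP was at 1.80 and 1.51 FPKM in TGF-β-treated SOX4-shRNA libraries, 3.79 and 4.71 FPKM in untreated SOX4-shRNA libraries, 1.75 and 1.61 FPKM in TGF-β-treated scrambled-shRNA libraries, and 6.68 and 5.98 FPKM in untreated scrambled-shRNA libraries. The part of these markers in the cytokine results was not tested. Of 10 leukocyte markers, the 7 with known values summed to 0.568 to 0.586 FPKM in TGF-β-treated SOX4-shRNA libraries, 0.424 to 0.991 FPKM in untreated ones, 0.406 to 0.791 FPKM in TGF-β-treated scrambled-shRNA libraries and 0.628 to 0.832 FPKM in untreated ones. The other 3, CD68, CSF1R and LYZ, were at or above 3.36, 1.41 and 0.109 FPKM, and the 5 endothelial markers summed to at most 0.279 FPKM. KRT6B was the 1 basal marker of 3 in the fit that was called on knockdown. It had 27.3 and 24.4 FPKM in untreated SOX4-shRNA libraries against 83.3 and 83.5 FPKM in untreated scrambled-shRNA libraries. EPCAM went the other way without a call, by 0.51 untreated (limma adjusted p = 0.155) and 0.53 with TGF-β (0.157). CDH3 gave -0.28 and -0.11 (0.224 and 0.717). Outside the fit, KRT17 had 1747 to 2024 FPKM in scrambled-shRNA libraries. In SOX4-shRNA libraries KRT17 was lower at every reading, with 1027 FPKM in library 2 with TGF-β and lost marks elsewhere.

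The genes whose pattern over the 8 libraries was most like that of each fitted member were listed by Pearson's r on log2(FPKM + 1), as a description over libraries that share 4 groups. For IL6 they were SORL1 (r = 0.976), MED13L (0.964) and C3orf62 (0.955). HELZ (0.992), AGO4 (0.987) and VGLL3 (0.982) were most like IL1A, and LRRC47 (0.953), GOT1 (0.941) and IRS1 (0.941) most like IL1B. For CSF2 they were CKAP4 (0.988), TRAPPC10 (0.986) and SNX29 (0.984).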

How the data were processed

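RNA of 8 HMLE libraries was sequenced as 75-base single reads from total RNA with a stranded ribosomal-depletion kit, per the labels' protocols, while another label names polyA RNA. The submitters' processing notes name hg19, Cuffdiff, Cufflinks 2.2.1 and TopHat2 2.0.9. The deposited table gives FPKM, in another notation than usual, for 48175 RefSeq transcripts, which the authors made per transcript. Neither the strand setting nor how libraries were scaled is stated in these sources. Of the transcripts 97.8% matched a symbol in the RefSeq table. Cells in exponent notation (13.9%) lie below 1e-04 FPKM and were set to 0.

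The members and gene lists were chosen with earlier results of these data known. Lost decimal marks were restored in genes with 1 transcript and at least 1 FPKM in at least 2 libraries. A transcript length was sought, within 0.4 log10 of the annotated length, that made the 8 cells whole reads within 0.003 reads plus rounding. Up to 2 cells of a gene could miss this, at a penalty, and 0.70% of cells did. Of 5430 genes 89.3% gave whole reads, against 7 genes with random last 3 digits. A value 10 times higher is also whole, so readings were weighed with the spread between libraries (multivariate t with 3 degrees of freedom), and 4778 genes with a probability of at least 0.95 were kept.

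The test was limma's (version 3.58.1, under R 4.3.3) on log2(FPKM + 1), trended, with 4 residual degrees of freedom, Benjamini-Hochberg adjusted over all fitted genes and called under 0.05. Restoration and fit were run on simulated data built from the genes already restored. The simulation used the replicate spread of the weighing and no knockdown difference. It therefore cannot show whether genes with large knockdown differences are read correctly. All members, SOX4, the receptors, up to 4 called genes per list and comparison, and the 3 genes most like each fitted member are named. Promoters are from RefSeq on GRCh38.p14 and positions from GENCODE 44 on GRCh37. Promoters of 8 members were in the table, and CSF3 and LIF had none there. The alternatives were a pseudocount of 0.1, no filter, upper-quartile scaling, all kept genes, a replicate block, each library left out in turn and, added after seeing the data, limma-voom on the restored reads, a crossed block, the addition of IL11 and TSLP and another reading of IL11. The labels do not say that replicate numbers pair the groups, so the block is an alternative only. Depth gave a median of 342 to 454 reads per fitted gene and library.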

Additional observations from a re-analysis of the deposited data

How the results depend on the processing

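The 20 fitted results of IL6, IL1A, IL1B and CSF2 (4 genes in 5 comparisons) kept their side of the threshold with a pseudocount of 0.1, upper-quartile scaling and voom. The CSF2 interaction, not called in either, was -0.06 as reported and 0.01 with voom. No called result of these 4 genes changed sign under any alternative, but all alternatives kept their restored readings. IL11 with TGF-β in scrambled-shRNA cells turned from 1.06 to -1.84 at the 10 times higher reading of its untreated libraries. Without the filter 3 of the 20 results lost their call, with all kept genes 1 and with the replicate block 1. The numbers of genes called depended more on the setting. Without the filter they were 201 for TGF-β in SOX4-shRNA cells, 171 for TGF-β in scrambled-shRNA cells, 110 for knockdown with TGF-β and 111 for knockdown untreated, against 375, 311, 185 and 193 as reported. With all kept genes, 12143 in number, 306 were called for knockdown untreated and 28 for the interaction, against 2. Leaving out each library in turn gave 134 to 270, 6 to 376, 26 to 206 and 25 to 199 genes in the same order of comparisons, with a lone library assumed to vary like the other groups, and 2 for the interaction each time. The cause was not tested.

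Deviations of same-numbered libraries correlated at 0.565 and 0.381 within a treatment and at -0.67 to -0.244 across treatments. The numbers thus did not pair all 4 groups alike, and a pairing within a treatment was not tested. With the replicate block 188, 127, 91 and 110 genes were called in that order. A crossed replicate block, with the numbers swapped in the TGF-β-treated groups, called 1122, 1209, 603 and 791, and 2 of the 20 member results gained a call. The swap follows the signs of these same deviations, so the added calls are not independent of them. Among the members with reads given, depth limits IL6 and TSLP most, at 3 to 49 and 5 to 21 reads per library. Lost decimal marks limit LIF, IL32, CSF3 and IL24, for which no reads are given. Untreated libraries had 0.227 to 0.873 FPKM of IL24, and SOX4-shRNA libraries 0.450 to 1.10 FPKM of CSF3. These levels are low as well, so depth may limit both genes too.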
